A study of Mus musculus with 14 samples.

Results

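Insulin signalling and FOXO-responsive genes were followed in the livers of diet-obese mice through 9 genes. They were the receptor gene Insr, the adaptor genes Irs1 and Irs2, the kinase regulatory subunit gene Pik3r1 and the kinase gene Akt2. The others were the transcription factor genes Foxo1 and Foxo3 and the secreted binding protein genes Igfbp1 and Igfbp2. Each gene was read from the probe set annotated to that symbol alone, and, where 2 such probe sets existed (Irs1 and Foxo1), from the brighter one, so that 9 of 22180 measured genes are described. The mice were male C57Bl/6J, started a 60% high-fat diet (HFD) at 6 weeks of age and ate it for 4 weeks before a further 4 weeks in 3 arms, which by these figures ended at 14 weeks of age. HFD control mice received no drug and no restriction (4 arrays). The HFD_CANA arm ate the diet with canagliflozin at 30 mg/kg (5 arrays; the treatment protocol gives 25 to 30 mg/kg), and the HFD_caloric_restriction arm had calories cut by 15 to 30% to match the body weight of the drug arm (5 arrays). Canagliflozin inhibits SGLT2, the transporter that returns filtered glucose from the kidney tubule to the blood. Every arm shared the obesogenic diet, so no lean reference enters the comparisons, and the labels do not say whether mice were fed or fasted when liver was taken. Liver RNA was hybridised to 1 Affymetrix array per sample, and the labels do not tie each array to an animal, so p-values measure the spread between these arrays.

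Insulin binding to its receptor leads to phosphorylation of the IRS adaptors, which recruit phosphatidylinositol 3-kinase, and the lipid made by that kinase activates AKT. AKT phosphorylates FOXO1 and FOXO3 and thereby keeps them out of the nucleus. When insulin is low, as in fasting, FOXO proteins enter the hepatocyte nucleus and raise transcription of a set of genes that includes Igfbp1, Irs2 and genes of glucose production. Insulin itself lowers Igfbp1 and Irs2 mRNA in liver, and both are common readouts of hepatic insulin action.

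The promoter sequences of 3 members are shown because they hold the core letters of the insulin response element, through which FOXO proteins act on Igfbp1. RefSeq (GRCm38.p6) promoter entries matched 8 of the 9 members, Insr having none, with 13 windows in all, each taken here as the 250 bases before an annotated start. The letters CAAAACA were searched on both strands, where they read TGTTTTG on the other strand, and the sequences run 5′ to 3′ along the gene with those letters in capitals. They are the windows of Igfbp1 (chr11:7197537-7197786, + strand), Irs2 (chr8:11008930-11009179, - strand) and Irs1 (chr1:82291440-82291689, - strand).
Igfbp1: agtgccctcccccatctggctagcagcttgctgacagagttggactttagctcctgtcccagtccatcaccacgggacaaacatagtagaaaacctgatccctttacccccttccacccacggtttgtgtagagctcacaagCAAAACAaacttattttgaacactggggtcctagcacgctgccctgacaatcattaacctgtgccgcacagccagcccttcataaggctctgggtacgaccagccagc
Irs2: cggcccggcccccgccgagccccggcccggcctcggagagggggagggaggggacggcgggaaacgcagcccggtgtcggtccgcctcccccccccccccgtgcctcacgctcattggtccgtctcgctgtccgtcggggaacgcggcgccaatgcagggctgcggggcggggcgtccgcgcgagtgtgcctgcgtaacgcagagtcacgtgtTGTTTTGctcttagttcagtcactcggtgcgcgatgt
Irs1: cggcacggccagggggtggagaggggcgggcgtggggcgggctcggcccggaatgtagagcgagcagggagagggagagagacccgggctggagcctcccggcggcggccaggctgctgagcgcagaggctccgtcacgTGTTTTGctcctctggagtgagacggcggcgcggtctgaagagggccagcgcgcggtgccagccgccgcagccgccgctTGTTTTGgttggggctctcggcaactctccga
The match lay 108 to 102 bases before the start in Igfbp1 and 37 to 31 bases before it in Irs2, while Irs1 had matches at 111 to 105 and at 32 to 26 bases. Of all 32851 windows of this length, 5.56% held the letters. In Igfbp1 the match opens the stretch caaaacaaacttattttg, whose 18 bases occurred in 1 of the 32851 windows, that of Igfbp1 itself. The other motif searched was GTAAACA, whose last 5 letters are those of the first. It reads TGTTTAC on the opposite strand, and was in 3.17% of all windows and in 0 of the 13 member windows. The stretch of 18 bases was cut from the Igfbp1 window itself, and how often other stretches of that length recur was not counted. A match describes letters in a window and not a bound site.

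Array medians ran from 4.07 to 4.13 on the log2 scale, and any 2 arrays correlated at 0.986 to 0.992 over the 22180 genes. The labelled tissue was borne out by its markers, since all 7 measured hepatocyte genes of 8 listed were bright in every arm, with a sum of linear values between 50444 and 54077 over the 14 arrays. In bulk liver, fewer cells of a type and less RNA per cell cannot be told apart. Canagliflozin replicate 3 stood apart from the other drug-treated arrays in several members below, and values with and without it are given. All levels are RMA values on the log2 scale, where 1 unit is a 2-fold difference, and they are compared between arms for 1 gene at a time, never between genes.

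With a threshold of 0.05 on the limma p adjusted over all 22180 genes, 0 of 9 members passed for canagliflozin against HFD control, where 0% of all genes passed. For caloric restriction against control it was 0 of 9 members and 0% of all genes, and for canagliflozin against caloric restriction 0 of 9 members and 0.00451% of all genes, which is 1 gene, Rtkn, named here after its value was seen. At an unadjusted limma p under 0.05 the counts were 3 of 9 members (Igfbp1, Irs2 and Pik3r1) against 6.51% of all genes for the drug against control. They were 0 of 9 against 3.93% for restriction against control, and the same 3 of 9 against 6.05% for the drug against restriction. With 1 array left out at a time the first count ranged from 2 to 4 and the last from 1 to 3. The count of 1 came without canagliflozin replicate 4, when only Pik3r1 was left. None of the 9 had arms that did not overlap, which among all genes held for 0.987% higher and 0.965% lower under the drug than in control. Those shares were 0.703% and 0.694% for restriction against control, and 0.437% and 0.491% for the drug against restriction. The 2 comparisons against HFD control share the control arrays and are not independent.

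**Figure D1:**
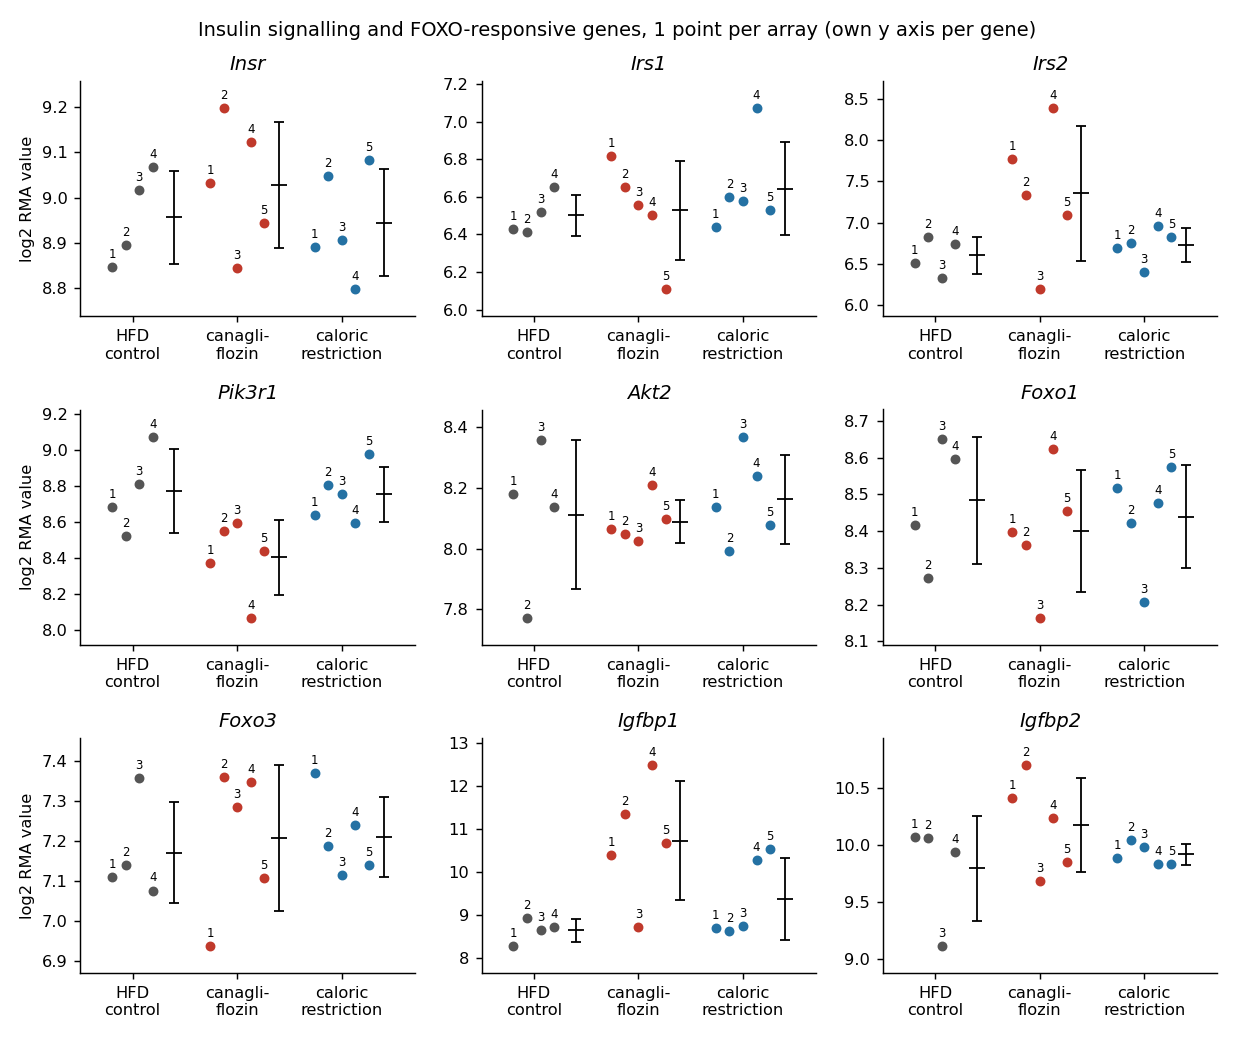
Log2 RMA value (y axis, a separate scale for each gene) of the 9 members in each of 14 arrays, grouped on the x axis by arm, with replicate numbers above the points and black bars giving the mean ± SD of the arm. Igfbp1 and Irs2 are high in canagliflozin replicates 1, 2, 4 and 5 and low in replicate 3, whereas Insr, Akt2, Foxo1 and Foxo3 overlap across all arms.

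The receptor gene Insr differed little between arms. Its values were 8.85, 8.89, 9.02 and 9.07 in the HFD controls, 9.03, 9.20, 8.84, 9.12 and 8.94 under canagliflozin, and 8.89, 9.05, 8.91, 8.80 and 9.08 under caloric restriction, in replicate order. The 3 arms overlapped throughout. The drug arm differed from control by 0.07 ± 0.10 (SE) with a 95% confidence interval from -0.13 to 0.27 (limma adjusted p = 0.942), and the restricted arm by -0.01 ± 0.10, from -0.21 to 0.19. Drug and restriction differed by 0.08 ± 0.09, from -0.11 to 0.27. These intervals leave room for differences of up to 1.21-fold higher under the drug than in control, so equality was not shown.

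The adaptors Irs1 and Irs2 carry the signal from the receptor to phosphatidylinositol 3-kinase, and Irs2 is a FOXO target in liver. Irs2 measured 6.51, 6.83, 6.33 and 6.74 in the HFD controls and 7.77, 7.34, 6.19, 8.39 and 7.09 under canagliflozin. Under caloric restriction it measured 6.70, 6.75, 6.40, 6.96 and 6.82. Of the 5 drug-treated arrays, 4 were above every control and above every restricted array, and replicate 3 was below all of both. The mean was 7.35 ± 0.81 (SD, n = 5) under canagliflozin, 6.73 ± 0.21 (n = 5) under restriction and 6.60 ± 0.22 (n = 4) in controls, so the last pair, neighbours in the order of levels, lay within their spread. Irs2 was 1.69-fold higher under the drug than in control (log2 fold change 0.75 ± 0.29, SE; 95% confidence interval 0.15 to 1.36; limma adjusted p = 0.68). It was 1.54-fold higher than under restriction (0.63 ± 0.27; limma adjusted p = 0.807), while restriction and control differed by 0.13 ± 0.29 (-0.48 to 0.73).

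Irs1, whose promoter window holds the same core letters as that of Irs2, did not show this pattern. It measured 6.43, 6.41, 6.52 and 6.65 in controls, 6.82, 6.65, 6.56, 6.51 and 6.11 under the drug, and 6.44, 6.60, 6.58, 7.07 and 6.53 under restriction. The arms overlapped, with canagliflozin replicate 5 the lowest of all arrays and caloric restriction replicate 4 the highest. The drug differed from control by 0.03 ± 0.14 (-0.27 to 0.32) and restriction from control by 0.14 ± 0.14 (-0.15 to 0.44). A dimmer Irs1 probe set, with a mean of 3.42, averaged 3.50 in controls, 3.40 under the drug and 3.38 under restriction. The difference between the responses of Irs1 and Irs2 was not tested.

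Pik3r1 encodes the main regulatory subunit of phosphatidylinositol 3-kinase, which binds the phosphorylated adaptors. It was lower in value under canagliflozin, at 8.37, 8.55, 8.59, 8.07 and 8.44, than in HFD controls, at 8.69, 8.52, 8.81 and 9.07, and in restricted mice, at 8.64, 8.80, 8.76, 8.59 and 8.98. Below all 4 controls lay 3 of 5 drug-treated arrays, and below all 5 restricted arrays lay 4 of 5. Without replicate 3, the drug-treated array that was not below them, the drug and restricted arms did not overlap, with a gap of 0.041. That array was left out after its value was seen, so this lack of overlap follows from leaving it out. Without it 1.22% of all genes had no overlap in that direction, a share that is no yardstick for Pik3r1. The lowest array, canagliflozin replicate 4, was the one in which Irs2 and Igfbp1 were highest. The drug mean of 8.41 ± 0.21 (SD, n = 5) was 1.29-fold lower than the control mean of 8.77 ± 0.23 (n = 4), with a log2 fold change of -0.37 ± 0.13 (SE; -0.63 to -0.10; limma adjusted p = 0.634). It was 1.27-fold lower than the restricted mean of 8.75 ± 0.15 (n = 5), with -0.35 ± 0.12 (-0.60 to -0.10; limma adjusted p = 0.719). Restriction and control were neighbours within their spread, at -0.02 ± 0.13 (-0.28 to 0.25).

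Akt2, the AKT isoform that carries most insulin signalling in hepatocytes, overlapped across arms. Its values ran from 7.77 to 8.36 in controls, 8.03 to 8.21 under canagliflozin and 7.99 to 8.37 under caloric restriction, and the lowest of all was HFD control replicate 2. The drug differed from control by -0.02 ± 0.11 (-0.26 to 0.21), restriction from control by 0.05 ± 0.11 (-0.18 to 0.29) and the drug from restriction by -0.07 ± 0.11 (-0.30 to 0.15).

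The transcription factor genes were as close. Foxo1, the main FOXO gene of hepatocytes in insulin action, measured 8.42, 8.27, 8.65 and 8.60 in controls, 8.40, 8.36, 8.16, 8.62 and 8.45 under the drug, and 8.52, 8.42, 8.21, 8.48 and 8.57 under restriction. Among drug-treated arrays replicate 3 was again the lowest, below all controls, and replicate 4 the highest, within the range of the controls. Foxo1 differed by -0.08 ± 0.11 (-0.32 to 0.15) between drug and control, by -0.04 ± 0.11 (-0.28 to 0.19) between restriction and control and by -0.04 ± 0.10 (-0.26 to 0.18) between drug and restriction. Foxo3, a related factor with overlapping targets, ranged from 7.08 to 7.36 in controls, 6.94 to 7.36 under the drug and 7.11 to 7.37 under restriction. Its differences were 0.04 ± 0.10 (-0.18 to 0.26), 0.04 ± 0.10 (-0.18 to 0.26) and -0.00 ± 0.10 (-0.21 to 0.20) in the same order. FOXO activity is set largely by phosphorylation and location of the protein, which arrays do not measure.

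**Figure D2:**
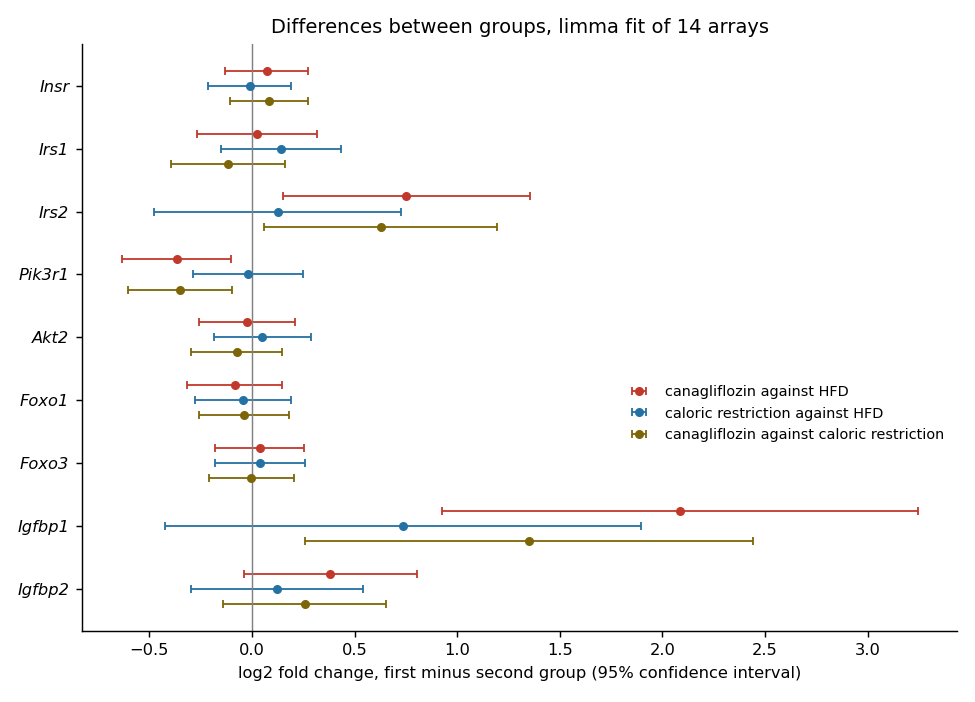
Log2 fold change (x axis; first minus second arm, with 95% confidence interval) of the 9 members (y axis) in the 3 comparisons, from the limma fit of all 14 arrays. Intervals of Igfbp1, Irs2 and Pik3r1 leave out 0 for the drug against control and against restriction, and those of the other 6 members include 0 in every comparison.

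Igfbp1, a liver-secreted protein that binds insulin-like growth factors and whose mRNA insulin lowers within hours, had the widest spread of the members. The HFD controls measured 8.27, 8.92, 8.65 and 8.72. Canagliflozin-treated arrays measured 10.39, 11.36, 8.71, 12.49 and 10.68, and restricted arrays 8.69, 8.63, 8.74, 10.29 and 10.54. Replicates 1, 2, 4 and 5 of the drug arm were above every control, and replicate 3 was within the range of the controls. The restricted arm was divided, with replicates 4 and 5 above every control and replicates 1, 2 and 3 within their range, and 3 of 5 drug-treated arrays (2, 4 and 5) were above all restricted ones.

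The mean of Igfbp1 was 10.73 ± 1.39 (SD, n = 5) under the drug, 9.38 ± 0.95 (n = 5) under restriction and 8.64 ± 0.27 (n = 4) in controls. Against control the drug arm was 4.24-fold higher (95% confidence interval 1.90 to 9.48; log2 fold change 2.09 ± 0.55, SE; limma adjusted p = 0.559), and against restriction 2.55-fold higher (log2 fold change 1.35 ± 0.52, 0.26 to 2.44; limma adjusted p = 0.801). Restriction and control differed by 0.74 ± 0.55, with an interval that includes 0 (-0.42 to 1.89, limma adjusted p = 0.999). That SE pools the spread of all 3 arms, of which the drug arm's was the widest. Without canagliflozin replicate 3 it was 0.43, so it is not set by the restricted and control arms alone. Without that array the drug arm differed from control by 2.59 (6.02-fold, 3.12 to 11.6, limma adjusted p = 0.0486). Then 1 of 9 members, Igfbp1, was called, beside 0.0541% of all genes. Against restriction 0 of 9 were called without that array, beside 0.0721% of all genes. Leaving out an array that lies low narrows the spread of its arm. Without canagliflozin replicate 4 the difference was 1.65, and the adjusted p ranged from 0.0486 to 0.785 over the 14 arrays left out in turn.

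Without replicate 3, both Igfbp1 and Irs2 of the 9 members had every drug-treated array above every control, as did 2.16% of all genes. Replicate 3 was singled out after its low values in these genes were seen. This lack of overlap, and that of Irs2 from restriction below, therefore follow from leaving it out, and the shares of all genes are no yardstick for them. Irs2 was then 2.06-fold higher than control (log2 fold change 1.04, limma adjusted p = 0.0873), and without canagliflozin replicate 4 it was 0.50 higher on the log2 scale. Against restriction Irs2 was then the 1 member with every drug-treated array higher, as were 1.14% of all genes, and it differed by 0.92 without replicate 3 and by 0.37 without replicate 4. Pik3r1 ranged from -0.45 without HFD control replicate 2 to -0.27 without HFD control replicate 4.

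**Figure D3:**
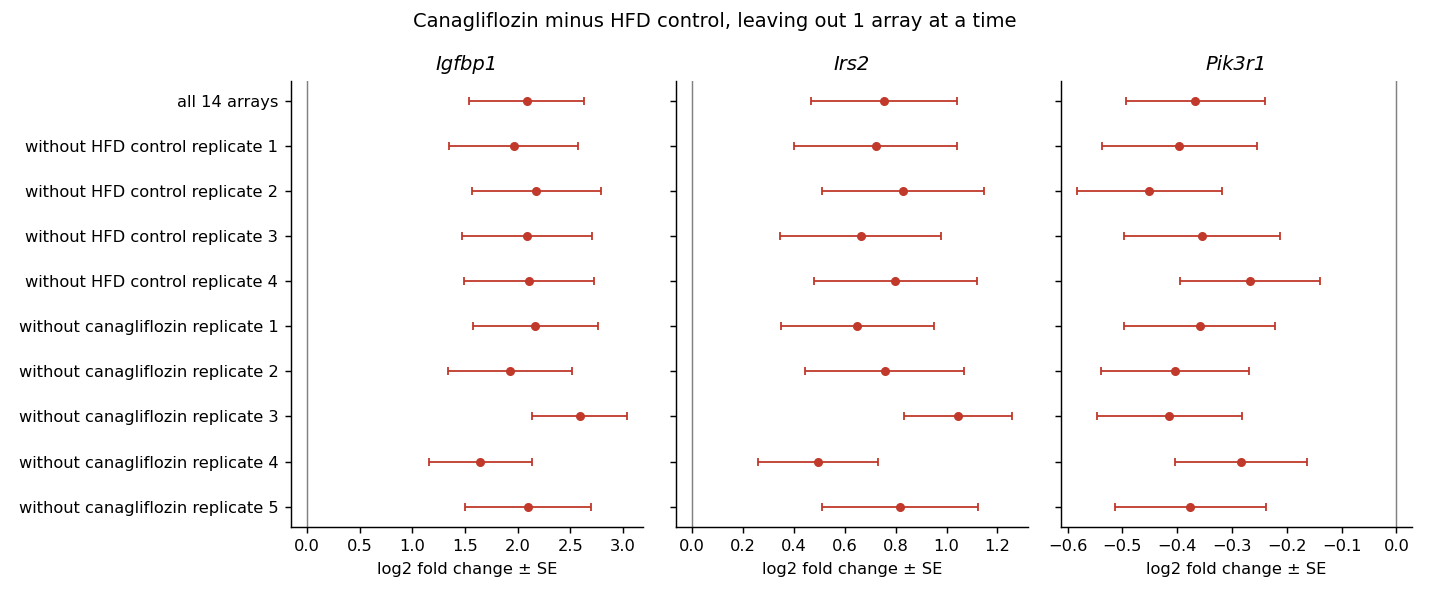
Log2 fold change ± SE (x axis) of Igfbp1, Irs2 and Pik3r1 for canagliflozin minus HFD control, with all 14 arrays (top) and with 1 array of these arms left out at a time (y axis). Igfbp1 moves between 1.65 and 2.59 and Irs2 between 0.50 and 1.04, with canagliflozin replicates 4 and 3 setting the ends, and no direction turns.

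Igfbp2, another binding protein of insulin-like growth factors secreted by hepatocytes, varied less. It measured 10.07, 10.06, 9.11 and 9.94 in controls, 10.42, 10.70, 9.68, 10.23 and 9.85 under the drug, and 9.89, 10.04, 9.98, 9.84 and 9.83 under restriction. Drug replicates 1, 2 and 4 were above all controls, replicate 3 was the lowest of its arm, and HFD control replicate 3 was far below every other array. The drug differed from control by 0.38 ± 0.20 (SE; -0.04 to 0.80; limma adjusted p = 0.794), and by between 0.15 and 0.50 when HFD control replicate 3 or canagliflozin replicate 3, respectively, was left out. Restriction and control differed by 0.12 ± 0.20 (-0.30 to 0.54), and by -0.11 without HFD control replicate 3. The drug and restriction differed by 0.26 ± 0.19 (-0.14 to 0.66), which was 0.38 without canagliflozin replicate 3 and 0.13 without canagliflozin replicate 2. Igfbp3 and Igfbp5, the neighbours of Igfbp1 and Igfbp2 on their chromosomes in the RefSeq table, differed from control under the drug by 0.16 ± 0.15 and -0.20 ± 0.23.

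Igfbp1 and Irs2 were correlated over the arrays. Over all 14 arrays Pearson's r between them was 0.86 (Spearman's rho 0.80), 0.80 after each arm's mean was taken out and 0.71 over the 12 arrays left without the 2 farthest from the Igfbp1 median. Both genes were highest in canagliflozin replicate 4, and in the restricted arm replicates 4 and 5 were the highest for both. There Igfbp1 was above every control in both arrays, but Irs2 was only 6.96 and 6.82, beside 6.83 in the highest control. Pik3r1 ran the other way, with r of -0.72 against Irs2 and -0.63 against Igfbp1. After each arm's mean was taken out these were -0.55 and -0.33, so part of each is the difference between arms. Without the 2 arrays farthest from the median of Irs2 or of Igfbp1, respectively, they were -0.29 and -0.33, so they also rest on few points. Igfbp2 correlated with Irs2 at 0.62, which was 0.65 without the 2 farthest arrays, and with Igfbp1 at 0.48, which was 0.19 without them. Values of 1 array share its RNA and its hybridisation, and the correlations are given as descriptions.

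**Figure D4:**
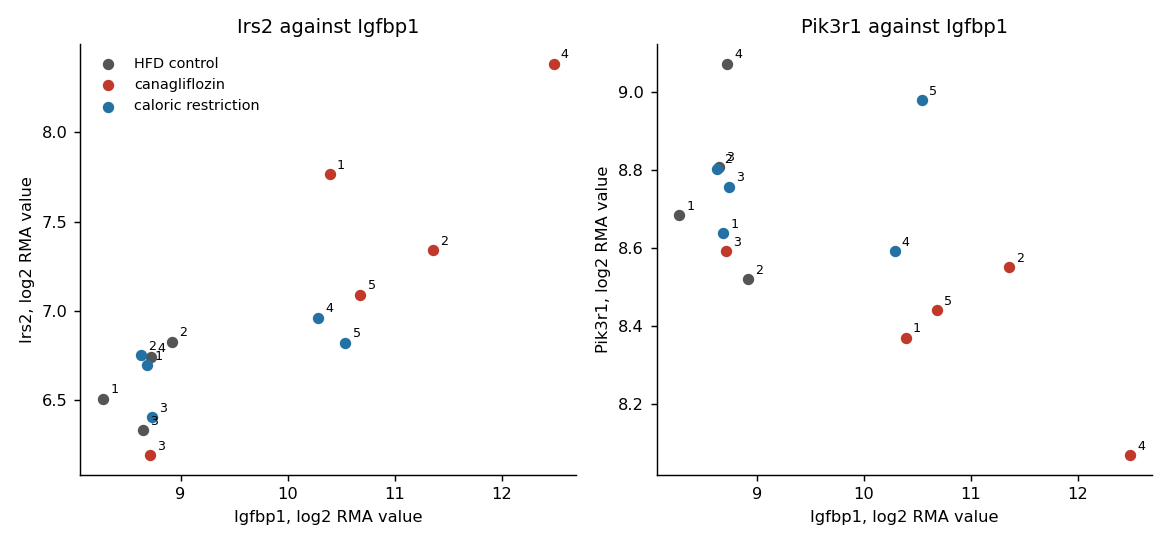
Irs2 (left) and Pik3r1 (right) against Igfbp1, all as log2 RMA values, 1 point per array with its replicate number, coloured by arm. Canagliflozin replicate 4 is at the far right in both plots, with Igfbp1 at 12.49, Irs2 at 8.39 and Pik3r1 at 8.07, and canagliflozin replicate 3 sits among the HFD controls for Igfbp1.

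Among genes with a mean log2 value of at least 5, the 3 outside the members whose values over the 14 arrays were most like Igfbp1 were Got1 (r = 0.97), which encodes the cytosolic aspartate aminotransferase, Sik1 (0.95), a kinase gene induced through cyclic AMP, and Flot1 (0.92), which encodes a membrane scaffold protein. With the 2 farthest arrays left out these were 0.95, 0.88 and 0.87. All 3 separated the drug arm from the controls with no overlap, replicate 3 included, unlike Igfbp1, as did 0.987% of all genes in that direction. The gaps between the arms were 0.11 for Got1, 0.045 for Sik1 and 0.013 for Flot1. These genes were picked for their likeness to Igfbp1 in the same arrays, so their separation is no independent result. Sik1 differed from control by 1.15 ± 0.28 and Got1 by 0.89 ± 0.23 (limma adjusted p = 0.559 for both). For Irs2 the most alike were Slc25a33 (0.91), a mitochondrial pyrimidine nucleotide carrier, Tbc1d8 (0.88) and Pdk4 (0.88), the kinase that shuts off pyruvate dehydrogenase in fasting, and they were 0.67, 0.80 and 0.81 without the 2 farthest arrays. For Igfbp2 they were Gch1 (0.86), which makes a precursor of tetrahydrobiopterin, Zbtb4 (0.83) and Ube2e3 (0.82), falling to 0.65, 0.54 and 0.68.

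The wider list of FOXO-responsive genes had 29 entries, of which 28 were measured, 25 of them outside the members. For canagliflozin against control 17 of these 25 were higher in value and 8 lower, and 7 had an unadjusted p under 0.05, all higher, against 3.21% of all genes in that direction. None passed adjusted over all genes. The median log2 fold change of the 25 was 0.04, against -0.00 over all genes, so the differences lay in part of the list. Ppargc1a, a coactivator of FOXO1 on genes of glucose production, measured 7.13, 7.52, 6.66, 8.52 and 8.01 under the drug and 6.08, 6.60, 6.51 and 6.53 in controls. The 2 arms did not overlap, with replicate 3 the lowest of the drug arm and replicate 4 the highest (1.14 ± 0.29, SE; limma adjusted p = 0.559). G6pc, which encodes the enzyme that frees glucose and whose window holds CAAAACA, measured 11.39, 11.81, 11.48, 12.12 and 12.06 against 11.38, 10.91, 11.29 and 11.26 (0.56 ± 0.15, limma adjusted p = 0.559). Its arms did not overlap either, but the gap was only 0.0029, against 0.063 for Ppargc1a. Among all genes 0.987% had no overlap in that direction.

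The other 5 were Pdk4 (1.14 ± 0.49), the autophagy gene Map1lc3b (0.43 ± 0.15), the lipase gene Pnpla2 (0.47 ± 0.21), Bcl2l11 (0.30 ± 0.13), which encodes a promoter of cell death, and Pck1 (0.36 ± 0.10), of glucose production, all named after their values were seen. Pdk4 was 8.90 in canagliflozin replicate 4 and 5.11 in replicate 3, below every control, as was Pnpla2 in replicate 3. Of the 26 list genes with a promoter entry, 4 held CAAAACA (Igfbp1, Irs2, G6pc and Ccng2) and 2 held GTAAACA (Txnip and Bcl2l11), beside 6.38% and 3.54% of the 27025 genes with an entry.

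For caloric restriction against control 18 of the 25 genes were higher and 1, Cited2, a transcriptional coregulator, had an unadjusted p under 0.05, against 2.06% of all genes higher and 1.87% lower (0.50 ± 0.22; limma adjusted p = 0.999). The median was 0.12, against 0.00 over all genes. Between the drug and restriction 12 of 25 were higher, with a median of -0.01. In that comparison 5 had an unadjusted p under 0.05 and were higher under the drug: Ppargc1a (0.86 ± 0.27), G6pc (0.34 ± 0.15), Pck1 (0.24 ± 0.10), Bcl2l11 (0.27 ± 0.12) and Txnip (0.64 ± 0.29). Cited2 (-0.49 ± 0.21) and Apoc3 (-0.22 ± 0.08), an apolipoprotein gene, were lower. The shares of all genes were 3.07% higher and 2.98% lower, and none of these genes passed adjusted over all genes.

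**Figure D5:**
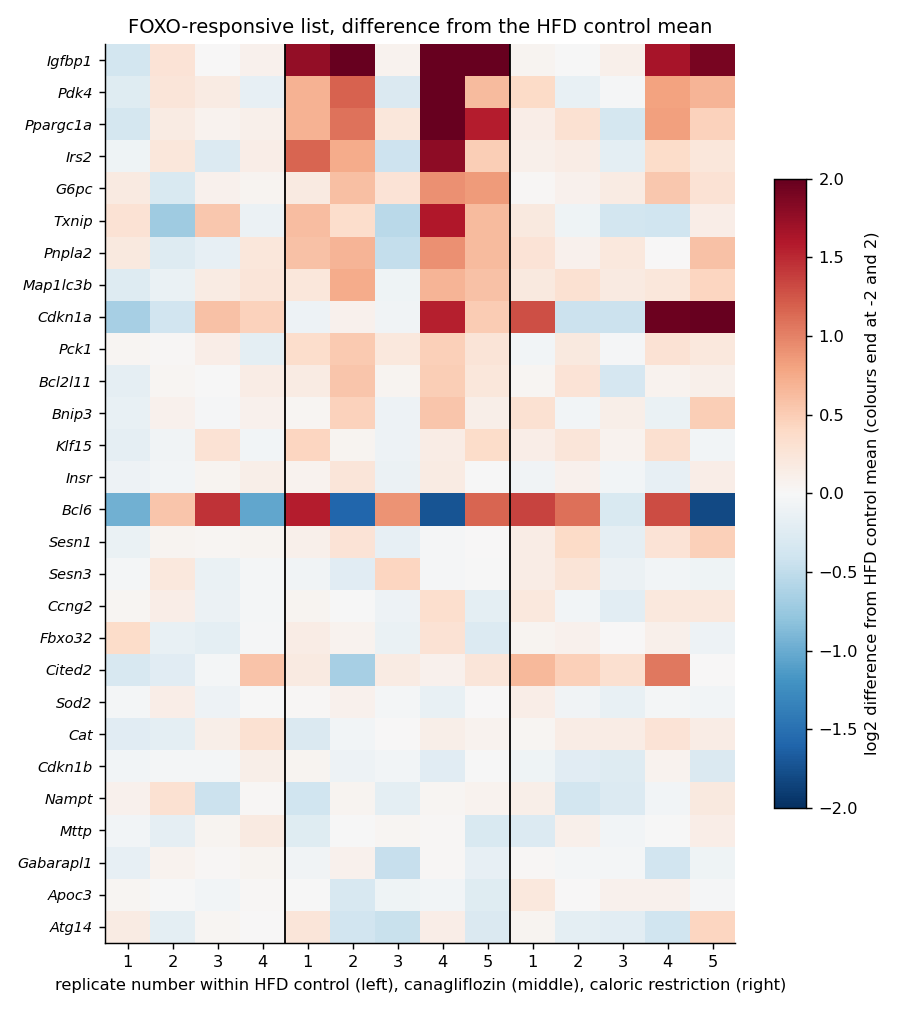
Difference of each array from the HFD control mean on the log2 scale (colour, red higher and blue lower, ending at -2 and 2) for the 28 measured genes of the FOXO-responsive list (rows, ordered by their mean difference under canagliflozin) in 14 arrays (columns, by arm and replicate). Among canagliflozin arrays, Igfbp1, Pdk4, Ppargc1a and Irs2 are highest in replicate 4 and lowest in replicate 3, where Pdk4 and Irs2 are below the control mean. Further down this does not always hold, as G6pc is lowest in replicate 1. Igfbp1 is red in caloric restriction replicates 4 and 5.

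The rest of the cascade differed little. Of 9 further receptor and adaptor genes, 4 were higher and 5 lower in value under the drug than in control, with 1, the adaptor gene Sh2b2, at an unadjusted p under 0.05 (-0.26 ± 0.10). Shc1, another adaptor gene, differed by -0.17 ± 0.11 between the drug and restriction. Of the 7 other phosphatidylinositol 3-kinase genes, 6 were higher in value under the drug than in control, with a median of 0.10 and none at an unadjusted p under 0.05. Pik3r3, Pik3cd and Pik3cg among these 6 were dim, with every arm mean below a log2 value of 5. Between drug and control the brighter Pik3c2a differed by 0.21 ± 0.14, Pik3r2 by 0.10 ± 0.11, Pik3ca by 0.01 ± 0.09 and Pik3cb by -0.18 ± 0.11. Pik3c2a differed by 0.29 ± 0.13 between drug and restriction, and the dim Pik3cg by 0.28 ± 0.13 between restriction and control. In the branch of AKT, GSK3 and mTOR, 10 of 14 genes other than Akt2 were lower in value under the drug than in control, with a median of -0.03 and 0 at an unadjusted p under 0.05. Mtor differed by -0.21 ± 0.10 and Pdpk1, whose kinase activates AKT, by -0.18 ± 0.09 between restriction and control.

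Brakes on the pathway and insulin clearance genes were 8 higher and 7 lower of 15 under the drug, with Grb14, which encodes an inhibitor of the insulin receptor, at 0.19 ± 0.08 and the phosphatase gene Ptpn1 at 0.18 ± 0.09 between drug and restriction. The 10 genes of FOXO factors and modifiers outside the members had 7 higher and 3 lower under the drug, with Skp2 at -0.30 ± 0.17 against control and Ywhab at -0.15 ± 0.10 against restriction. Of 14 genes of the IGF axis other than Igfbp1 and Igfbp2, 11 were lower in value than control under the drug and 11 under restriction, 0 with an unadjusted p under 0.05. Among them Ghr, the growth hormone receptor gene, differed by -0.20 ± 0.10 under the drug and Pappa, a protease gene of this axis, by -0.19 ± 0.09 under restriction. None of the genes in these 2 paragraphs passed adjusted over all genes.

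Genes that insulin induces for lipid synthesis lay on the other side. Of 13 measured, 10 were lower in value under canagliflozin than in control, 8 of them at an unadjusted p under 0.05, against 3.3% of all genes in that direction, and the median was -0.39. Against restriction 12 of 13 were lower, 6 of them at an unadjusted p under 0.05, beside 2.98% of all genes in that direction, with a median of -0.32, and restriction against control had 6 higher and 7 lower with a median of -0.04. Fasn, the fatty acid synthase gene, differed by -1.13 ± 0.27 between drug and control, and Pklr, the liver pyruvate kinase gene, by -0.82 ± 0.19 between drug and restriction. For Pklr 5 of 5 drug-treated arrays were below all restricted ones, with a gap of 0.067. Among all genes 0.491% had no overlap in that direction. Neither Fasn nor Pklr passed adjusted over all genes (limma adjusted p = 0.559 and 0.487). Without canagliflozin replicate 3 Fasn differed from control by -1.41 (limma adjusted p = 0.0122) and Pklr from restriction by -0.97 (limma adjusted p = 0.0499). Of all genes 0.0541% and 0.0721% were then called in these comparisons. That array, singled out after values were seen, was the highest of the drug arm for both genes, so leaving it out narrows the spread. Fasn differed by -0.94 without canagliflozin replicate 4, and Pklr by -0.73 without canagliflozin replicate 2.

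Markers of other liver cells were followed beside these results. The 8 macrophage markers, all measured, were 7 higher and 1 lower in value under the drug than in control and all 8 higher than under restriction, at medians of 0.12 and 0.21, with 0 at an unadjusted p under 0.05. Their summed linear values ran from 744 to 1398 in controls, 931 to 1305 under the drug and 626 to 1248 under restriction. Endothelial sums ran from 1438 to 1745, 1355 to 1856 and 1362 to 1901, and stellate sums from 1457 to 1947, 1628 to 1952 and 1278 to 1819 in the same order. Cholangiocyte, lymphocyte, neutrophil, adipocyte and acinar markers were dim, and of these lists only cholangiocyte (1 of 4 measured), adipocyte (1 of 5) and acinar (2 of 4) had any gene at a mean log2 value of at least 5. Values from arrays are not 0 for an absent transcript, and the part of these cells in the results for Igfbp1, Irs2 and Pik3r1 was not tested.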

How the data were processed

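Liver total RNA (250 ng) was labelled by the WT Plus protocol and hybridised to 14 Affymetrix arrays, per the labels' protocols. Values as deposited are log2 signals, 1 per probe set and array; the submitters' processing notes name RMA and Affymetrix Expression Console. RMA equalises the distributions of the arrays, so a global difference in RNA content would not be seen. Versions, library files and genome build were not given in the sources used here.

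Of 41345 probe sets, 23521 had 1 gene symbol, 1814 several and 16010 none in the platform annotation. The brightest probe set per gene gave 22180 genes, all tested. A model with 1 mean per arm over the 14 arrays was fitted by limma 3.58.1 (lmFit, eBayes; R 4.3.3), with Benjamini-Hochberg adjustment over all genes per comparison and a threshold of 0.05. The fit was tested on simulated data. Precision is limited by the number of arrays. Errors are standard errors of that fit, which pool the spread of all arms, or standard deviations.

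The members, the 8 pathway lists, the 9 marker lists and the alternatives were chosen with earlier results of these data known. Lists are described by counts and medians, with no test of a list. Named genes are the members, up to 2 others per list with the smallest p in any comparison, and the 3 genes most correlated with Igfbp1, Igfbp2 and Irs2, without gene models that lack a name, small RNAs or olfactory and vomeronasal receptors. Others are named because their unadjusted p was under 0.05. Some listed genes are not reported here. Replicate numbers are shared by the arms, and deviations of same-numbered arrays correlated at -0.089 to 0.198 over 13 pairs, 3 of them over 0.1, so the numbers were not taken to pair the arrays.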

Additional observations from a re-analysis of the deposited data

Results flagged for a closer look

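Within arms of 4 or 5 arrays, 7 single values lay far from the rest by Dixon's criterion, in 117 combinations of gene and arm examined; chance flags about 5% of such combinations. Among the members, Irs1 was 7.07 in caloric restriction replicate 4 against 6.60 in the next array, and Igfbp2 was 9.11 in HFD control replicate 3 against 9.94 in the nearest. Among the other genes, Ghr was 8.97 in HFD control replicate 1 (nearest 9.19) and Cited2 7.21 in canagliflozin replicate 2 (nearest 7.96). Pnpla2 was 8.42 in canagliflozin replicate 3 (nearest 9.48) and Acly 9.96 in the same array (nearest 9.26), while Mlxipl was 9.22 in caloric restriction replicate 5 (nearest 9.68). Igfbp1 and Irs2, low in canagliflozin replicate 3, did not meet the criterion there.

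Pklr was below the HFD control mean in every canagliflozin array and above it in every restricted array. The drug and restricted arms differed by -0.82 on the log2 scale (limma adjusted p = 0.487). Canagliflozin replicate 3, at 10.675, was barely below the control mean of 10.680, and the controls themselves ran from 10.23 to 11.16.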

How the results depend on the processing

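The 27 member results, 3 per gene, were recomputed under 7 other settings and with each of 14 arrays left out. The directions of Igfbp1, Irs2 and Pik3r1 for the drug against control and against restriction held in every one. With the mean of all probe sets in place of the brightest, Irs1 differed by -0.040 between drug and control and Foxo1 by 0.040 between restriction and control, opposite in sign to the values above; the alternative adds the dimmer probe set of each gene. Leaving out 1 array turned differences near 0. For restriction against control Insr ranged from -0.048 to 0.025, Pik3r1 from -0.10 to 0.083, Akt2 from -0.062 to 0.13, Foxo1 from -0.11 to 0.013, Foxo3 from -0.0004 to 0.10 and Igfbp2 from -0.11 to 0.21. For the drug against control Irs1 ranged from -0.047 to 0.13, Akt2 from -0.14 to 0.059 and Foxo3 from -0.0012 to 0.105, and for the drug against restriction Foxo1 ranged from -0.097 to 0.020 and Foxo3 from -0.041 to 0.065.

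With limma's trended and robust variance the count of members at an unadjusted p under 0.05 was 1 in place of 3 for the drug against restriction. The count of members past the adjusted threshold was 0 in each comparison under every setting, apart from 1 (Igfbp1) for the drug against control without canagliflozin replicate 3, a range of 0 to 1. Over all genes, the drug against control had 0 genes called, 1 with only genes of mean log2 at least 5, 1 with the deposited order of the arrays as a covariate and 0 to 12 with an array left out. Restriction against control had 0, and 1 with the deposited order. The drug against restriction had 1, 0 with only these 2 arms fitted, 2 with the replicate block and 0 to 16 with an array left out. Both upper ends came without canagliflozin replicate 3; the cause of the other differences was not tested. With the replicate block Igfbp1 differed by 1.95 ± 0.44 and Irs2 by 0.77 ± 0.22 between drug and control, and no member was called.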

Other observations

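Cdkn1a, a cell cycle inhibitor gene of the FOXO-responsive list that is also induced by other stresses, was, like Igfbp1, highest of the restricted arm in replicates 4 and 5, at 7.33 and 7.59. Replicates 2 and 3 were both at 4.94 and replicate 1 was at 6.65, above every HFD control (4.70 to 5.96), whereas Igfbp1 in replicate 1 was within the range of the controls. Ppargc1a and Pdk4 were also highest of the restricted arm in these 2 arrays, at 7.26 and 6.89 and at 6.21 and 6.08. Other genes of the list went otherwise. In the restricted arm Txnip, Pnpla2, Gabarapl1 and Atg14 were lowest in replicate 4, and Bcl6 and Klf15 in replicate 5. All these genes were singled out after their values were seen.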
